A study of Mus musculus with 8 samples.

Results

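The genes described here are the colony-stimulating factors and their receptors, 8 genes chosen by symbol from the 55416 Ensembl gene identifiers counted in mouse lung. They are 4 ligand genes, Csf1, Il34, Csf2 and Csf3, and 4 receptor genes, Csf1r, Csf2ra, Csf2rb and Csf3r, and each of the 8 passed the filter on low counts. Lung RNA-seq libraries came from 8 separate female mice of the strain C57BL/6 (C57BL/6J in the study's methods), aged 6 to 8 weeks. The control group (mice 1, 2 and 4) received the solvent DMSO by tail vein and then saline into the peritoneum. The LPS group (mice 1, 6 and 7) received 35 mg/kg of LPS, the bacterial endotoxin, into the peritoneum, and for it a DMSO injection is not given in the sources used here. The dual-treatment group (mice 2 and 5) received 10 mg/kg of YW3-56, an inhibitor of the peptidylarginine deiminases, in DMSO 0.5 h before the same dose of LPS. Lungs were taken 24 h after LPS. Total counts per library ran from 19061949 to 20908608.

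Colony-stimulating factors are cytokines that control the survival, growth and activity of myeloid cells. CSF1 and IL-34 share the receptor tyrosine kinase CSF1R, on which most tissue macrophages depend. CSF2 (GM-CSF) binds a complex of a specific alpha chain, encoded by Csf2ra, and the common beta chain, encoded by Csf2rb, and signals through JAK2 and STAT5; in the lung it is needed for alveolar macrophages to form. CSF3 (G-CSF) acts through CSF3R, mostly on neutrophils and their precursors, and signals largely through STAT3.

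The libraries carried the transcripts of lung. Sftpc, the surfactant protein C gene of alveolar type 2 cells, was at 8322 to 24536 CPM (normalised read counts, scaled by library total and edgeR's TMM factors) across the 8 libraries, and Scgb1a1 of club cells at 22675 to 65313 CPM. In the LPS group, however, the libraries of mice 6 and 7 stood apart. The summed level of 12 matched squamous epithelium genes was 806 and 2184 CPM in them, against 1.60 CPM in LPS mouse 1 and 5.58 to 8.86 CPM in the control and dual-treatment mice. Krt13, the most abundant of these genes over the 8 libraries together, was at 286 and 887 CPM in LPS mice 6 and 7. It was below 1 CPM in every other library, and Krt4 was above it in LPS mouse 6, at 293 CPM. The summed level of 8 skeletal muscle genes, led by Acta1, was 484 and 1255 CPM in LPS mice 6 and 7, 16.8 CPM in LPS mouse 1 and 4.99 to 19.1 CPM elsewhere. For this reason the value of each of the 8 genes in LPS mouse 1 is given, and their comparisons were repeated with it as the only LPS mouse, an alternative chosen after seeing the data. The gene lists further on were not recounted in that way.

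Csf1, Csf3, Csf2rb and Csf3r were higher than control both with LPS and with dual treatment, while Csf1r was lower with LPS and higher with dual treatment. A gene was called when its adjusted p in edgeR was under 0.05. Against control, LPS lungs had 4 of the 8 genes higher, Csf1, Csf3, Csf2rb and Csf3r, and 1 lower, Csf1r, while of all 18560 tested genes 32.6% were called higher and 33.9% lower. Dual-treatment lungs had 6 of the 8 higher than control, Csf1, Csf3, Csf1r, Csf2ra, Csf2rb and Csf3r, and 1 lower, Il34, where 9.13% of tested genes were called higher and 7.02% lower. Of these, Csf3 was tested only through its counts in the LPS libraries and had no test with the dual-treatment and control groups alone. Against LPS alone, dual-treatment lungs had all 4 receptor genes higher and 2 ligand genes, Csf3 and Il34, lower, where 31.7% of tested genes were called higher and 27.4% lower. The shares for LPS against control and for dual treatment against LPS show that a call was common for any gene there. Without dual-treatment mouse 2, 4 of the 8 genes were called against control in place of 7; Il34, the 1 lower, was also lost without control mouse 1, 2 or 4 or LPS mouse 6. With LPS mouse 1 alone, Csf2rb and Csf3r were no longer called in dual treatment against LPS, at log2 fold changes of 0.36 and 1.14. Those of Csf1r and Csf2ra were 1.92 and 0.98. These comparisons share the control, LPS or dual-treatment libraries and are not independent of each other. By fold change over 2 with an unadjusted p under 0.05, the criterion of the study's methods, 3, 7 and 4 of the 8 genes were called in LPS against control, dual treatment against control and dual treatment against LPS, where 40.1%, 10.5% and 35.3% of tested genes were. By fold change over 2 with an adjusted p under 0.05 the counts were 3, 6 and 4, against 39.2%, 7.15% and 33.8% of tested genes.

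**Figure D1:**
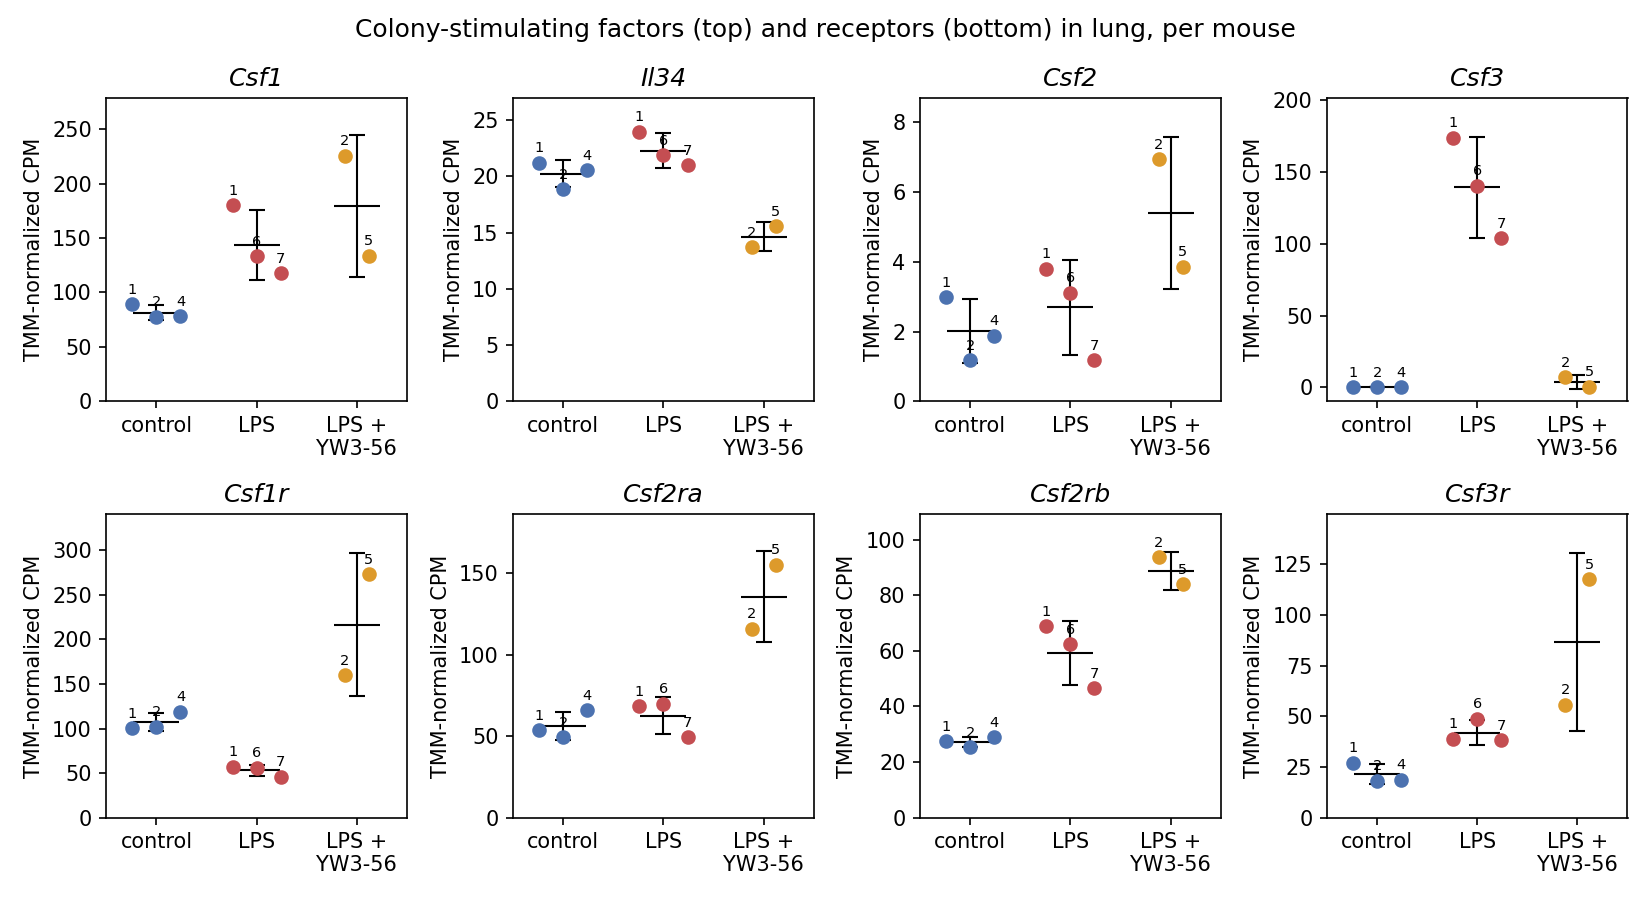
TMM-normalized CPM of the 4 ligand genes (top) and the 4 receptor genes (bottom) in each lung library, by group; points are mice with their numbers, horizontal lines are group means and bars are 1 SD. Csf3 was at 104 to 174 CPM in the LPS mice and at most 7.22 CPM in every other mouse, and Csf1r was lowest in the 3 LPS mice and highest in the 2 dual-treatment mice.

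Csf3 showed the widest range of the family. The gene lies at chr11:98592089-98594458 on the plus strand of GRCm39. It had 1, 0 and 1 counts in control mice 1, 2 and 4, and 2930, 2428 and 1858 counts in LPS mice 1, 6 and 7. In the dual-treatment group it had 159 counts in mouse 2 and 10 counts in mouse 5. As CPM this was 174, 140 and 104 in the LPS mice, 7.22 and 0.439 in the dual-treatment mice, and at most 0.0489 in the controls. The 3 groups did not overlap, and LPS mouse 1, which lacked the squamous transcripts, had the highest value. With only 2 counts in all control libraries, the ratio of LPS to control was 4398, with a 95% exact counting interval of 1217 to 36324, and the call had an adjusted p of 9.69e-06 in edgeR. Such intervals cover counting error only. Between LPS and dual treatment Csf3 fell by 5.19 on the log2 scale (standard error 0.72, adjusted p = 0.000258), and both dual-treatment mice were below all 3 LPS mice. The LPS group was 19.2-fold above dual-treatment mouse 2 (interval 16.4 to 22.6) and 316-fold above dual-treatment mouse 5 (interval 171 to 658).

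The dual-treatment mice themselves were far apart in Csf3, with mouse 2 at 16.4 times the level of mouse 5 (interval 8.71 to 34.9). Csf3 was still called higher in the dual-treatment group than in control (adjusted p = 0.015), at a pooled ratio of 120 with a counting interval of 32.6 to 997. With only these groups in the fit, Csf3 did not pass the filter on low counts and had no test, so that it was tested here through its counts in the LPS libraries. The call was lost without control mouse 1, 2 or 4 or without dual-treatment mouse 2, with fitted log2 fold changes of 7.01, 6.15, 6.95 and 3.53. Without dual-treatment mouse 2 the log2 difference from LPS became -8.31, and without mouse 5 it was -4.29, both still called. Without mouse 5 the fitted log2 fold change against control was 7.55 and called. An antisense gene of the annotation, Gm38985, covers 44.2% of the exon length of Csf3 on the opposite strand; the strand setting of the counting is not given in the sources used here, so reads of the antisense gene cannot be told apart from those of Csf3.

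Csf1, the main ligand of CSF1R, was higher than control after LPS and stayed above control after dual treatment. The gene lies at chr3:107648364-107667806 on the minus strand. Its level was 89.2, 77.6 and 77.9 CPM in control mice 1, 2 and 4, and 180, 133 and 118 CPM in LPS mice 1, 6 and 7. The dual-treatment mice 2 and 5 had 226 and 134 CPM. Every LPS and dual-treatment mouse was above every control mouse, and the LPS and dual-treatment groups overlapped. Against control the log2 fold change was 0.82 with LPS (standard error 0.21, adjusted p = 0.00626) and 1.14 with dual treatment (standard error 0.23, adjusted p = 0.00965). The LPS value was 0.52 under scaling by total count alone, still called. Between dual treatment and LPS it was 0.32 (standard error 0.23, adjusted p = 0.246), which did not pass the test. This last value followed the dual-treatment mouse used: without mouse 5 it was 0.63 and called, and without mouse 2 it was -0.13 and not called. Under scaling by total count alone it was 0.67 and called. With mouse 5 as the only dual-treatment mouse, the log2 fold change against control was 0.68 and no longer called. With LPS mouse 1 as the only LPS mouse, Csf1 was 1.15 above control, still called, and the log2 fold change of dual treatment against LPS was -0.01 and not called.

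Il34, the second ligand of CSF1R, behaved differently from Csf1. The gene lies at chr8:111423928-111532584 on the minus strand. It was at 21.2, 18.9 and 20.6 CPM in control mice 1, 2 and 4, at 23.97, 21.9 and 21.0 CPM in LPS mice 1, 6 and 7, and at 13.7 and 15.6 CPM in dual-treatment mice 2 and 5. Control and LPS mice overlapped, and both dual-treatment mice were below all the others. LPS gave a log2 fold change of 0.14 against control (standard error 0.11, adjusted p = 0.298), which did not pass the test and turned to -0.15 when libraries were scaled by total count alone. Il34 in dual-treatment lungs was lower than in LPS lungs (log2 fold change -0.60, standard error 0.13, adjusted p = 0.00326) and lower than in control lungs (-0.46, standard error 0.13, adjusted p = 0.0400). The difference from control lay near the threshold: it was not called without control mouse 1, 2 or 4, LPS mouse 6 or dual-treatment mouse 2, at -0.43, -0.51, -0.48, -0.46 and -0.40. Under scaling by total count alone neither was called, at -0.42 against control and -0.28 against LPS, and without the filter on low counts the difference from control was -0.47 and not called.

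Csf2, the gene of GM-CSF, had the lowest level per kilobase of the 8 genes in LPS lungs. It lies at chr11:54138097-54140493 on the minus strand. Its counts were 61, 25 and 41 in the control mice, 64, 54 and 21 in the LPS mice, and 153 and 88 in the dual-treatment mice. As CPM these were 2.98, 1.17 and 1.89 in control mice 1, 2 and 4, then 3.80, 3.12 and 1.17 in LPS mice 1, 6 and 7, and 6.94 and 3.86 in dual-treatment mice 2 and 5. Control and LPS mice overlapped, while both dual-treatment mice lay above all the others, mouse 5 by little over LPS mouse 1. No comparison of Csf2 passed the test at these counts. The log2 fold change was 0.42 for LPS against control (standard error 0.48, adjusted p = 0.46), 1.42 for dual treatment against control (standard error 0.51, adjusted p = 0.0885) and 1.004 for dual treatment against LPS (standard error 0.51, adjusted p = 0.115). The dual-treatment value against control was called by DESeq2, at a log2 fold change of 1.40, and without the filter on low counts, at 1.42. It was also called with only the compared groups in the fit, at 1.44, and without LPS mouse 7, at 1.42. Against LPS it was called without the filter and under scaling by total count alone, at 1.03 and 1.36. Without dual-treatment mouse 2 it was 0.91 against control and 0.50 against LPS, and without LPS mouse 7 it was 0.63 against LPS, none of them called. With LPS mouse 1 alone it was 0.50 against LPS and not called. Exons of another annotated gene, Gm57329, overlap 149 bases of Csf2 exons.

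Csf1r, the receptor of CSF1 and IL-34 and a marker of monocytes and macrophages, moved in opposite directions with LPS and with dual treatment. The gene lies at chr18:61229714-61266535 on the plus strand. It was at 100, 102 and 119 CPM in control mice 1, 2 and 4, at 57.1, 56.1 and 46.0 CPM in LPS mice 1, 6 and 7, and at 160 and 273 CPM in dual-treatment mice 2 and 5. The 3 groups did not overlap: LPS mice were lowest and dual-treatment mice highest. Csf1r fell by 1.01 on the log2 scale between control and LPS (standard error 0.19, adjusted p = 0.001), and all 3 LPS mice were below the controls. Dual treatment placed it 1.02 above control (standard error 0.20, adjusted p = 0.00963) and 2.03 above LPS (standard error 0.20, adjusted p = 4.23e-05), a 4.08-fold difference. In bulk lung, fewer cells of a type and less RNA per cell cannot be told apart. Without dual-treatment mouse 5, the log2 difference from control was 0.55, still called. With LPS mouse 1 alone Csf1r was -0.90 from control and dual treatment was 1.92 above LPS, both called. Exons of Hmgxb3 on the opposite strand overlap 1461 bases of Csf1r exons. Hmgxb3 had 437 to 733 counts per library and Csf1r 824 to 6229. The counts were closest in LPS mice 1, 6 and 7, at 510, 437 and 680 for Hmgxb3 and 963, 971 and 824 for Csf1r. The strand setting of the counting is not given, so reads of the shared bases cannot be told apart.

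Csf2ra, the alpha chain that gives the GM-CSF receptor its specificity, was higher only with dual treatment among the comparisons with control. The gene lies at chr19:61212395-61216892 on the minus strand. Control mice 1, 2 and 4 had 53.8, 49.6 and 66.0 CPM, LPS mice 1, 6 and 7 had 68.5, 69.9 and 49.4 CPM, and dual-treatment mice 2 and 5 had 116 and 155 CPM. Control and LPS mice overlapped and both dual-treatment mice were above all of them. The log2 fold change for LPS against control was 0.15 (standard error 0.17, adjusted p = 0.46), not passing the test, and -0.14 under scaling by total count alone. Csf2ra in dual-treatment lungs was above control by 1.27 (standard error 0.19, adjusted p = 0.00219) and above LPS by 1.12 (standard error 0.19, adjusted p = 0.000741). No exon of another annotated gene overlaps those of Csf2ra.

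Csf2rb, the beta chain shared by the receptors of GM-CSF, IL-3 and IL-5, was above control in every LPS and dual-treatment mouse. It lies at chr15:78209952-78238047 on the plus strand. Its level was 27.5, 25.2 and 29.0 CPM in control mice 1, 2 and 4, 68.8, 62.4 and 46.5 CPM in LPS mice 1, 6 and 7, and 93.7 and 84.0 CPM in dual-treatment mice 2 and 5. The 3 groups did not overlap. Against control the difference in log2 level was 1.12 for LPS (standard error 0.14, adjusted p = 9.55e-05) and 1.71 for dual treatment (standard error 0.15, adjusted p = 0.00018), and dual treatment was 0.58 above LPS (standard error 0.15, adjusted p = 0.00913). This last difference was not called without dual-treatment mouse 2, at 0.48, or with LPS mouse 1 alone, at 0.36, and was 0.92 under scaling by total count alone.

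Csf2rb has a close paralog, Csf2rb2, which in mice encodes a beta chain specific to IL-3. It lies beside Csf2rb at chr15:78166707-78189921 on the minus strand. Of the 150-base windows of the longest Csf2rb transcript, 3.47% occur exactly in a Csf2rb2 transcript, and of its 50-base windows 18.4%, so the split of reads between them is uncertain. Csf2rb2 was at 9.05, 8.45 and 9.24 CPM in control mice 1, 2 and 4, at 30.2, 32.8 and 19.0 CPM in LPS mice 1, 6 and 7, and at 32.3 and 30.7 CPM in dual-treatment mice 2 and 5. Unlike Csf2rb, its LPS and dual-treatment mice overlapped, and the log2 difference between those groups was 0.21 (standard error 0.20, adjusted p = 0.403). With the counts of Csf2rb and Csf2rb2 added, the 3 comparisons were called at log2 fold changes of 1.26, 1.73 and 0.48.

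Csf3r, the receptor of G-CSF, was higher than control after LPS and higher again after dual treatment, where its ligand gene was low. It lies at chr4:125918262-125938236 on the plus strand. Control mice 1, 2 and 4 had 27.2, 18.2 and 18.8 CPM, LPS mice 1, 6 and 7 had 39.04, 48.9 and 38.1 CPM, and dual-treatment mice 2 and 5 had 55.7 and 118 CPM. The 3 groups did not overlap, and dual-treatment mouse 5 lay far above mouse 2. The log2 fold change against control was 0.97 with LPS (standard error 0.27, adjusted p = 0.00909) and 2.02 with dual treatment (standard error 0.29, adjusted p = 0.00187). Dual treatment was 1.05 above LPS (standard error 0.28, adjusted p = 0.0106). Without dual-treatment mouse 5 this difference was 0.38 and not called, and the difference from control was 1.35 and still called. With LPS mouse 1 alone neither difference that involves LPS was called, at 0.87 against control and 1.14 between dual treatment and LPS.

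**Figure D2:**
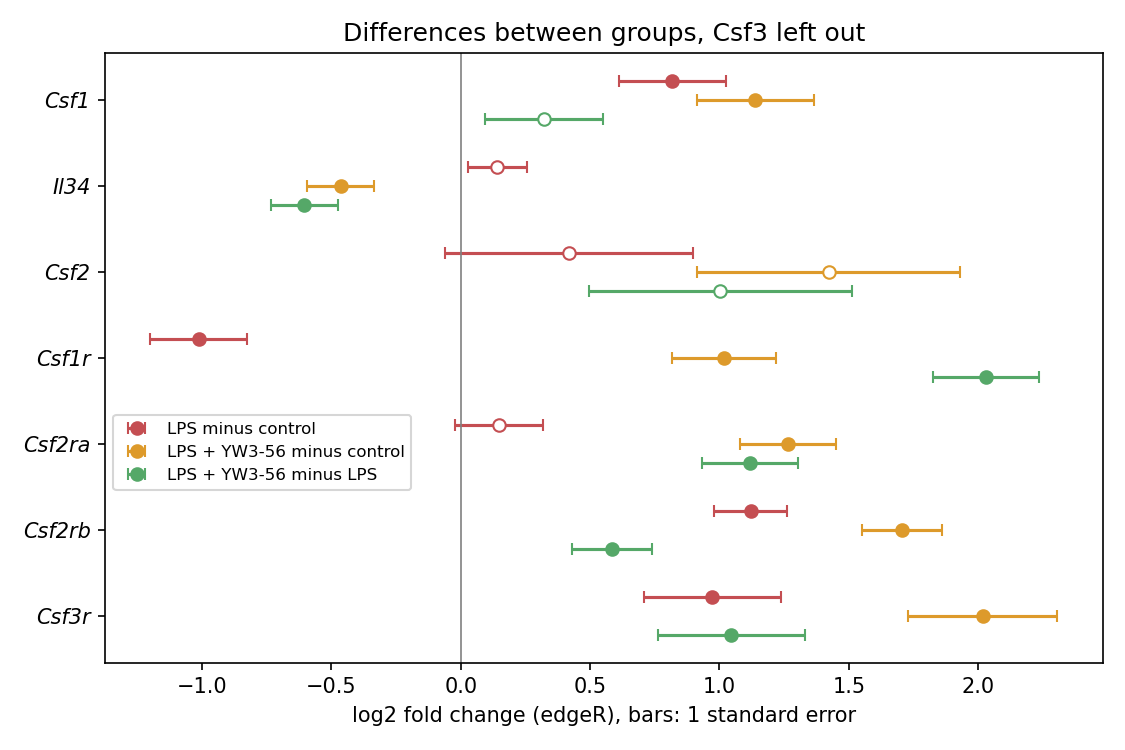
Log2 fold changes from edgeR for 7 of the 8 genes, with bars of 1 standard error; colours are the 3 comparisons, filled points are called at an adjusted p under 0.05 and open points are not. Csf3 is left out because its controls held 2 counts in all. Csf1r was -1.01 with LPS against control and 2.03 with dual treatment against LPS, while no point of Csf2 is filled.

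The dual-treatment mice differed from each other along the family. Mouse 2 had the higher value of Csf1, Csf2, Csf3 and Csf2rb, and mouse 5 the higher value of Csf1r, Csf2ra, Csf3r and Il34. Each dual-treatment comparison above rests on these 2 mice.

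Levels of different genes were compared as CPM per kilobase of exon length. In control lungs Csf2ra was highest at 19.3 ± 2.93 (SD, n = 3), followed by Csf1r at 14.5 ± 1.40 and Csf1 at 13.9 ± 1.12, the last pair within their spread. Il34 at 5.30 ± 0.315, Csf3r at 4.20 ± 0.986, Csf2rb at 3.74 ± 0.257 and Csf2 at 2.52 ± 1.14 formed a lower group, in which Csf3r overlapped Il34, Csf2rb and Csf2, and Csf2 overlapped Csf2rb, and Csf3 was lowest at 0.0223 ± 0.0194. In LPS lungs Csf3 moved from last to first, at 98.3 ± 24.8, above Csf1 at 24.4 ± 5.51 and Csf2ra at 21.4 ± 3.92, which overlapped. Csf3r at 8.23 ± 1.17, Csf2rb at 8.14 ± 1.58 and Csf1r at 7.21 ± 0.835 lay within each other's spread there, and Il34 at 5.85 ± 0.401 overlapped Csf1r, with Csf2 at 3.37 ± 1.70 below them. In dual-treatment lungs (n = 2) Csf2ra led again at 46.4 ± 9.51, and Csf1 at 30.6 ± 11.1 and Csf1r at 29.4 ± 10.9 overlapped. Csf3r at 16.99 ± 8.58 overlapped both of these and Csf2rb at 12.2 ± 0.940, and Csf2 at 6.75 ± 2.72, Il34 at 3.84 ± 0.349 and Csf3 at 2.70 ± 3.38 closed the order, in which the range of Csf3 overlapped those of Il34 and Csf2.

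Ratios of ligand to receptor level per kilobase, taken within each library, put these differences side by side. Csf1 over Csf1r was 1.11, 0.953 and 0.821 in the control mice, 3.95, 2.98 and 3.21 in the LPS mice, and 1.77 and 0.612 in dual-treatment mice 2 and 5. The LPS mice thus had more Csf1 than Csf1r transcript, and the dual-treatment mice fell on either side of the controls. Il34 over Csf1r was 0.334 to 0.408 in control mice, 0.754 to 0.882 in LPS mice and 0.166 and 0.1101 in the dual-treatment mice, with no overlap. Csf3 over Csf3r was 16.0, 10.3 and 9.81 in the LPS mice and 0.466 and 0.0134 in the dual-treatment mice, against at most 0.00881 in the controls. Csf2 over Csf2ra was 0.0865 to 0.203 in control mice, 0.0867 to 0.203 in LPS mice and 0.219 and 0.0908 in the dual-treatment mice, so that the groups overlapped. Csf2rb over Csf2ra, the chains of the GM-CSF receptor, was 0.176 to 0.205 in control mice, 0.359 to 0.404 in LPS mice and 0.324 and 0.217 in the dual-treatment mice, without overlap.

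For each gene the 3 tested genes with the most similar profile were found by the root-mean-square difference of centred log2 CPM over the 8 libraries. For Csf3 they were Cxcl9 at 0.677, Ccl20 at 0.876 and Saa2 at 1.11, which, like Csf3, were low in control, high in LPS and low again in dual-treatment lungs. Cxcl9 had mean levels of 0.877, 780 and 18.8 CPM in control, LPS and dual-treatment mice. For Csf1 they were Mcm3 at 0.104, Cks1b at 0.139 and Fkbp1a at 0.151, for Il34 Lsm14a at 0.0540, Dlg1 at 0.0555 and Spring1 at 0.0680, and for Csf2 Hrob at 0.355, Gm15956 at 0.373 and Ccl6 at 0.398. For Csf1r they were Crip1 at 0.160, Rtl8b at 0.162 and P2ry6 at 0.178, and for Csf2ra Tmem106a at 0.150, Naip6 at 0.154 and Serpinb9b at 0.158. For Csf2rb they were Il21r at 0.123, Pik3r5 at 0.130 and Irag2 at 0.132, and for Csf3r the leukocyte genes Coro1a at 0.216, Ptpn6 at 0.217 and Ptprc at 0.228. Within the family the closest profiles were those of Csf1 and Csf2rb, at 0.300, and Csf2rb and Csf3r, at 0.400, while Csf3 differed from every other member by 4.09 or more.

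Short motifs were looked for in the 250 bases before the RefSeq start of the 4 genes with a promoter window. Of these, Csf2ra and Csf3r were higher with dual treatment than in control and LPS lungs. So were Csf1r and Csf2rb, which had no window. RefSeq promoter windows (GRCm38.p6) were held for 4 of the 8 genes, Csf1, Csf2, Csf2ra and Csf3r, with no entry for Il34, Csf3, Csf1r and Csf2rb, and each of the 4 had 1 exact match in GRCm39. The letters GAGGAA, the core bound by PU.1 and other ETS factors, were searched on both strands and occur in 23.25% of the 32851 windows. They were found 2 times in Csf2ra and 1 time in Csf3r, and in neither Csf1 nor Csf2. The 30 bases around the matches are shown on the strand of the gene with the motif in capitals, for Csf2ra at chr19:61216857-61216886 and for Csf3r at chr4:125918354-125918383 of GRCm39.
Their RefSeq starts lie 36 and 190 bases downstream of the GENCODE starts, so that both stretches lie inside the gene coordinates given above.
Csf2ra: ttcccaacctgcagatGAGGAAGAGGAAgc
Csf3r: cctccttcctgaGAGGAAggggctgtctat
The C/EBP letters TTGCNNAA, in 9.56% of windows, occur 1 time in Csf2 and in none of the other 3, and the STAT letters TTCNNNGAA, in 7.02% of windows, the AP-1 letters TGANTCA, in 6.75%, and the TATA letters TATAAA, in 12.4%, in none of the 4. The RefSeq start of Csf2 lies 232 bases upstream of its GENCODE start and that of Csf1 21 bases downstream, so that the windows do not cover the same place relative to the annotated genes. A match describes the letters and was not tested as a binding site.

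Signalling genes downstream of these receptors were described from lists of named genes, each by its counts beside the median over all tested genes, which was -0.01 for LPS against control, 0.00 for dual treatment against control and 0.06 for dual treatment against LPS. The counts of every list below stand against the shares of all tested genes called higher and lower, which were 32.6% and 33.9% for LPS against control, 9.13% and 7.02% for dual treatment against control, and 31.7% and 27.4% for dual treatment against LPS. Of 12 STAT3 and STAT5 feedback and target genes, 11 rose with LPS and none fell, with a median log2 fold change of 1.91, and against LPS 11 were lower with dual treatment and none higher, with a median of -1.48. Beside Csf3, which made the same turn, the STAT3 feedback inhibitor Socs3 was at 76.3 to 105 CPM in control, 729 to 980 CPM in LPS and 187 and 170 CPM in dual-treatment mice, and Osm and Socs1 rose with LPS, at log2 fold changes of 4.93 and 4.37, and were lower with dual treatment than with LPS, at -3.31 and -4.32. Of these 12 genes 3 were above control with dual treatment, Osm, Socs3 and Il4ra, where 9.13% of all tested genes were called higher. Csf3r and Csf2rb were highest in that group, and a link to these genes was not tested. Of 21 receptor-proximal signalling genes, 16 rose and 2 fell with LPS, and 8 were higher and 10 lower with dual treatment than with LPS, at medians of 0.78 and -0.27. Stat3 and Jak2, the kinase bound to CSF2RB and CSF3R, were lower with dual treatment than with LPS. Their log2 fold changes were -1.87 and -1.41. Stat5b and Tyrobp were higher in that comparison, by 1.02 and 1.18, as were the receptor genes. Stat5b had fallen with LPS, at -1.29 against control, and with dual treatment was not called against control, at -0.28. Of the receptor genes only Csf1r fell with LPS, and all were above control with dual treatment. Tyrobp was above control with LPS and, by 2.18, with dual treatment. Against control with dual treatment, 7 of the 21 were higher, led by Fgr at 2.86, and 1, Pik3r1, was lower. Of 5 relatives of the common beta chain, 3 were tested: Csf2rb2 and Il3ra rose with LPS and with dual treatment over control, Il5ra was higher with dual treatment than with LPS on the value of mouse 2 (4.81 CPM, against at most 0.690 CPM in every other mouse), Il3 had 0 counts in every library and Il5 was too low to test.

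Genes that induce, or limit the life of, the ligand transcripts were counted in the same way. Of 14 transcription factor genes known to act on colony-stimulating factor genes, 11 rose and 1 fell with LPS and 11 were lower and 2 higher with dual treatment than with LPS, at medians of 1.97 and -1.26. Cebpd, Nfkbiz and Fos rose with LPS by 3.60, 3.00 and 2.82, and Rel, Nfkbiz and Fos were lower with dual treatment than with LPS, at log2 fold changes of -2.83, -2.41 and -2.33. Of 9 cytokine genes upstream of these ligands, 7 rose with LPS, Il33 fell and Tslp, named after its values were seen, was not called. With dual treatment against LPS, 7 were lower, Tslp among them, Il33 was higher and Tnf was not called. The medians were 3.28 for LPS against control and -1.61 for dual treatment against LPS. Il17a, Il17f and Ifng, counted in both sets of 7, had at most 5 counts in every control and dual-treatment library. They were tested through their counts in the LPS libraries. Il6 was at 200, 33.4 and 85.7 CPM in LPS mice 1, 6 and 7 and at most 2.59 CPM in every other mouse, and Il17a was at 25.3, 2.08 and 2.29 CPM in the same LPS mice and at most 0.0908 CPM elsewhere. LPS mouse 1, highest in both, was also highest of its group in Csf1, Il34, Csf2, Csf3, Csf1r and Csf2rb as TMM-scaled CPM. Its TMM factor, 0.810, was the lowest of the libraries. Relative to total count alone, it was highest in Csf1, Csf2 and Csf3 but not in Il34, Csf1r or Csf2rb. Of 11 genes that decay or bind such transcripts, 6 rose with LPS and none fell, and 10 were lower with dual treatment than with LPS, at medians of 0.33 and -0.70. Zc3h12a and Zfp36, whose products destabilise cytokine transcripts, rose with LPS by 4.05 and 3.01 alongside Csf3 and were lower with dual treatment than with LPS, at -2.86 and -2.61.

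Markers of the cells that carry the receptors were measured in the same libraries, and their part in the receptor values was not tested. Of 12 neutrophil genes 11 rose with LPS, and 7 were higher than control with dual treatment; between dual treatment and LPS 4 were higher, led by Fpr1, Retnlg and Cxcr2, and 5 lower, led by Mpo, Elane and Camp. Their summed level, with S100a9 the most abundant over the 8 libraries, was 185 to 324 CPM in control mice, 2555, 3521 and 2399 CPM in LPS mice 1, 6 and 7, and 1930 and 2484 CPM in dual-treatment mice 2 and 5. With LPS against control, 5 of 9 monocyte genes rose, led by Vcan, Ly6c2 and Nr4a1, and 3 fell, Ace, Ccr2 and Cx3cr1, at a median of 0.48, whereas Csf1r fell. The summed level of the 9 genes, of which Ace was the most abundant in control and dual-treatment mice and Nr4a1 in LPS mice, was 1216, 1103 and 1371 CPM in control mice, 965, 542 and 559 CPM in LPS mice and 1279 and 1762 CPM in dual-treatment mice. Ace is also a gene of lung capillary endothelium, and which cells carried the transcripts of these 9 genes was not tested. Of these genes 6 were higher with dual treatment than with LPS and 2 lower, and Ccr2, at 16.7 to 21.7 CPM in control, 1.73 to 2.31 CPM in LPS and 25.1 and 30.5 CPM in dual-treatment mice, had the same order of groups as Csf1r. Treml4, Cd300e and Cx3cr1 of patrolling monocytes were at 46.1, 20.2 and 20.3 CPM in dual-treatment mouse 5, which had the highest Csf1r, and at 11.6, 3.68 and 1.77 CPM in mouse 2. Of the other listed monocyte genes, Ccr2, Nr4a1, Ace and F13a1 were also higher in mouse 5. Vcan was higher in mouse 2, at 61.1 CPM against 37.3 CPM in mouse 5, and Ly6c2 was at 80.4 and 79.3 CPM in mice 2 and 5. Of 12 tissue macrophage genes that depend on CSF1R, 8 were higher with dual treatment than with LPS, led by Cd163, C1qa and Trem2 at 2.83, 2.64 and 2.60, and 1 lower, Lyve1. Against control 7 were higher and 1 lower, Mertk, at -0.46. Their sum, 494 to 636 CPM in control, 1687 to 2299 CPM in LPS and 1279 and 954 CPM in dual-treatment mice, was largely Lyve1, also a gene of lymphatic vessels, in LPS mice, where that gene alone was at 1504 to 2056 CPM. The medians of these 12 genes were -0.21, 1.49 and 1.61 in LPS against control, dual treatment against control and dual treatment against LPS. Of 13 genes listed as alveolar macrophage genes that depend on GM-CSF, 6 fell and 2 rose with LPS, at a median of -0.32. With dual treatment against LPS, 6 were higher and 2 lower, at a median of 0.81. Of the 13, Ear2, Cd36 and Ear1 fell with LPS, at log2 fold changes of -2.45, -2.001 and -1.94. Bhlhe40 and Bhlhe41 rose, at 2.72 and 0.93. Csf2 and Csf2ra were not called in that comparison. Cd36 was at 956 to 1014 CPM in control mice, where Siglecf of the same list was at 7.93 to 12.8 CPM. Whether these transcripts came from alveolar macrophages was not tested. Of 11 myeloid transcription factor genes, 6 rose and 2 fell with LPS, and 3 were higher and 3 lower with dual treatment than with LPS, at medians of 1.39 and -0.23; the counts between dual treatment and LPS were near the shares of all tested genes. Spi1, the gene of PU.1, rose by 2.42 with LPS and 2.17 with dual treatment, and Maf and Cebpa were higher with dual treatment than with LPS by 1.85 and 0.78, whereas Egr1, Irf8 and Runx1 were lower, at -1.90, -1.79 and -1.36.

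Other cell type lists were counted for dual treatment against LPS beside the 31.7% of all tested genes called higher and 27.4% called lower there. Of 7 endothelial genes 5 were higher and none lower, and of 7 fibroblast and pericyte genes 4 were higher and none lower. Of 8 type 2 alveolar genes 3 were higher and none lower, of 6 type 1 alveolar genes 3 were higher and 2 lower, and of 6 airway genes none was higher and 5 were lower. Among these 5 was Krt5, also a gene of squamous epithelium, at 0.119 CPM in LPS mouse 1 and 17.2 and 23.6 CPM in LPS mice 6 and 7. Of 8 dendritic cell genes 2 were higher and 3 lower, and of 11 lymphocyte genes 3 were higher and 1 lower. Of 6 tested mast cell and basophil genes 2 were higher and 1 lower, Mcpt8. Mcpt8 had at most 2 counts in every control and dual-treatment library and was tested through its counts in the LPS libraries. With LPS against control, where 32.6% of tested genes were called higher and 33.9% lower, 5 endothelial genes were lower and none higher. Higher and lower were 1 and 4 fibroblast and pericyte, 1 and 6 type 2, 1 and 3 type 1, and 5 and 1 airway genes. They were 1 and 6 dendritic cell, 1 and 3 mast cell and basophil, and 1 and 5 lymphocyte genes. The libraries also differed in composition, with TMM factors of 1.06 to 1.08 in control, 0.810 to 0.930 in LPS and 1.09 to 1.11 in dual-treatment mice. Scaling by total count alone moved the median of all genes to -0.29 for LPS against control and 0.38 for dual treatment against LPS, and the split of calls from 6046 higher and 6300 lower to 4336 and 7832, and from 5875 and 5085 to 7889 and 3225. Under it Csf3, Csf1r, Csf2rb and Csf3r kept the direction and the call of each comparison given above.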

How the data were processed

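Lung RNA-seq libraries of 8 mice were compared in 3 groups: control (3 mice), LPS (3) and LPS plus YW3-56 (2, as in the labels and a figure caption of the study, where its methods give 3 per group). The deposited files hold raw counts per Ensembl gene, which the authors made by checking and trimming reads with FastQC 0.11.9 and Trim Galore, aligning them to GRCm39 with HISAT2 2.2.1 and counting with featureCounts 2.0.1. The sources used here do not give the annotation release, the strand setting or how multi-mapping reads were treated. Counts were fitted in R 4.3.3 with edgeR 4.0.16: filterByExpr by group, TMM scaling, 1 quasi-likelihood fit over all 8 libraries with 5 residual degrees of freedom, and Benjamini-Hochberg adjustment over the 18560 genes tested. Every adjusted p is from edgeR. A permutation of 3 mice against 3 cannot give a two-sided p under 0.1. CPM use TMM factors, and standard errors are on the log2 scale.

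Csf3 held 1 count or none in each control library. A lower bound against a floor of 3 counts had been planned for such groups. Ratios of pooled counts with an exact conditional binomial 95% interval were given in its place, because 2 counts were present. Gene positions and exon lengths are those of GENCODE M39, matched to 54749 of the 55416 identifiers. The 8 genes and all lists were chosen with earlier results of these data known. The genes named from each list were those called with the up to 3 highest and lowest log2 fold changes and the most abundant marker, and a few others, such as Socs3 levels beside Csf3, were picked after their values were seen. The 30-base promoter stretches were chosen after the motif matches were seen. Alternatives were DESeq2 1.42.0, other scalings and filters, only the compared groups, each mouse left out, 2 other call criteria, Csf2rb with Csf2rb2 added, and LPS mouse 1 alone.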

Additional observations from a re-analysis of the deposited data

How the results depend on the processing

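Over 24 results, the log2 fold changes of 8 genes in 3 comparisons, and their alternatives, 329 of 359 values kept the direction and side of the threshold, 18 no longer passed it, 8 newly passed it and 4 reversed. The causes were not tested. The reversed values, none of them called, were Il34 and Csf2ra in LPS against control at -0.15 and -0.14 under scaling by total count alone, and Csf1 in dual treatment against LPS at -0.13 without dual-treatment mouse 2 and -0.0098 with LPS mouse 1 alone; leaving out each mouse in turn, that Csf1 value ran from -0.13 to 0.63.

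Under fold change over 2, with unadjusted or adjusted p, 3 of the 8 genes in place of 5 were called in LPS against control, 2 of them higher, and 0 lower in dual treatment against control and 1 lower against LPS. Scaling by total count alone gave 0 lower against control and 1 lower against LPS, the fit with no filter 0 lower against control, and the filter of 10 counts in every library, under which Csf3 was not tested, 1 lower against LPS. With only the compared groups in the fit, Csf3 was not tested in dual treatment against control. With LPS mouse 1 alone, Csf2rb and Csf3r were not called in dual treatment against LPS, at log2 fold changes of 0.36 and 1.14. Leaving out each mouse in turn, the genes called in dual treatment against control ran from 4 to 8, and those lower from 0 to 1.

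A fit that leaves 1 mouse in a group assumes that it varies like the others. Of all tested genes, 2997 were called in dual treatment against control, and 1788, 1553, 1710 and 1220 without control mouse 1, 2 or 4 or dual-treatment mouse 2. No paired analysis was possible because the groups share fewer than 2 replicate numbers. Depth limits Csf2, at 21 to 153 counts per library, and Csf3 in control.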
